A study of Mus musculus with 4 samples.

Results

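Among the cells of mouse inguinal fat, 606 luminal epithelial cells carried transcripts of both luminal marker sets, the alveolar set (Elf5, Kit, Csn3, Aldh1a3 and Wfdc18) and the hormone-sensing set (Prlr, Esr1, Pgr and Cited1). They were chosen by their counts. A cell needed at least 4 UMIs (unique molecular identifiers, 1 per captured transcript) of the luminal keratins Krt8 and Krt18 together, none of the leukocyte gene Ptprc, at least 5 UMIs of the alveolar set per 10000 UMIs of the cell and at least 2 of the hormone set. The 606 made up 3.85% of the 15721 cells that passed the filter and 27.7% of the 2190 cells with the same keratin and Ptprc counts. Of the other luminal cells, 1355 had the hormone set only, 160 the alveolar set only and 69 neither.

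The cells were isolated as stromal vascular fraction (what remains of fat once the adipocytes are removed) from the inguinal white fat of 8-week-old C57BL/6 mice. In 2 libraries the mice had spent 24 h at 4 °C, and in 2 libraries they had been kept at room temperature for the same 24 h. No genotype, transgene or drug was used. The labels used here state neither the sex of the animals nor how many went into a library, so p-values measure the spread between libraries, which may be technical.

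The fourth mammary gland lies in the inguinal fat pad, and its ducts are lined by luminal cells with an outer layer of basal, contractile cells. Luminal cells form different lineages. Alveolar progenitors depend on the transcription factor Elf5, carry the receptor Kit and give rise to the cells that make milk, while hormone-sensing cells carry the receptors for oestrogen (Esr1), progesterone (Pgr) and prolactin (Prlr) and pass the signal on through paracrine factors such as Wnt4 and amphiregulin (Areg). In droplet methods 2 cells can also share 1 barcode, and their transcripts are then read as those of 1 cell.

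The 4 libraries held 19218 barcodes, with 35198164 to 55160902 UMIs each. Cells with both sets numbered 265 and 124 in the cold libraries and 122 and 95 at room temperature (replicates 1 and 2 throughout, in that order), and their UMIs summed to 3918849 to 11479596 per library. Any pair of libraries shared 5 to 10 barcodes, and none of the 606 cells had a barcode that occurred in another library. Room temperature replicate 2 stood apart among luminal cells, with 102 hormone-only cells against 356 to 487 in the others.

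**Figure D1:**
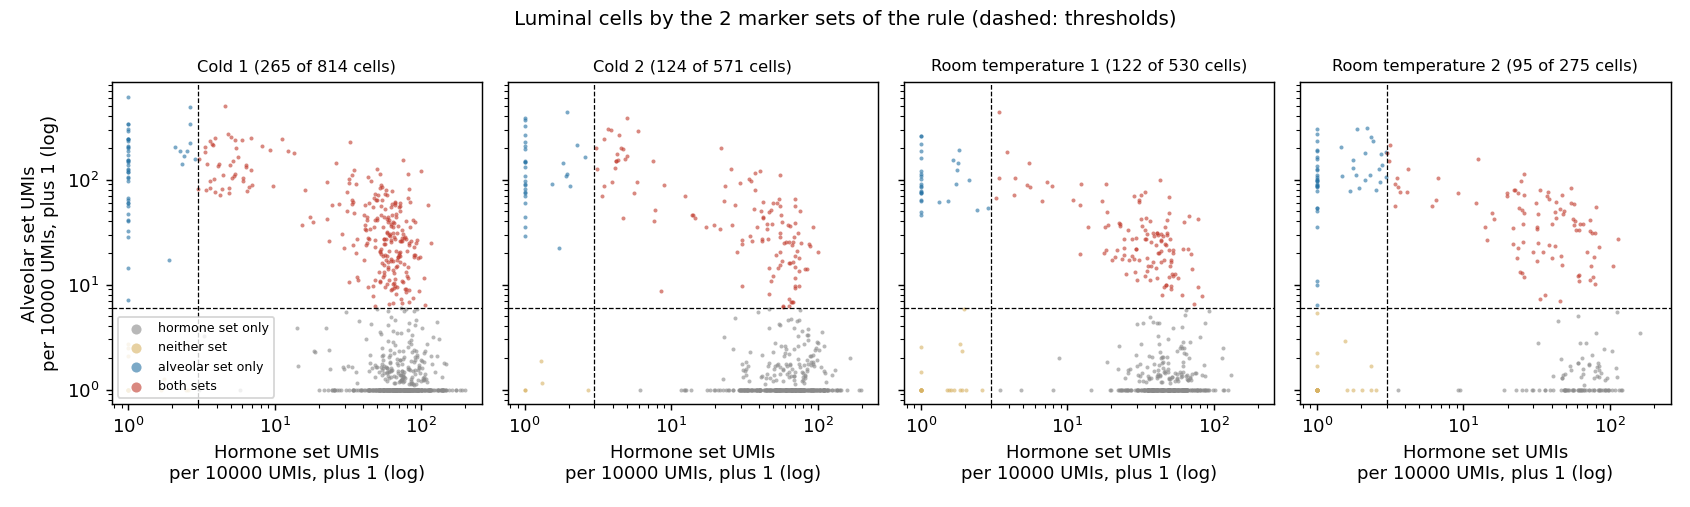
Each point is a luminal cell, placed by the UMIs of the hormone set (x) and of the alveolar set (y) per 10000 UMIs of the cell, plus 1, on log axes. Dashed lines mark the thresholds of the rule, 1 panel per library. Cells with both sets, 265, 124, 122 and 95, form a broad group at 10 to 100 on both axes and a smaller one just right of the hormone threshold.

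By their markers the cells were luminal epithelium. Epcam, an adhesion molecule of epithelia, stood at 1759 ± 87.1 CPM (the UMIs of a gene scaled to a total of 1000000 per library; SD over the 4 libraries), close to 1719 ± 152 in alveolar-only and 1737 ± 168 in hormone-only cells. The 7 basal markers (Krt14, Krt5, Krt17, Acta2, Myh11, Oxtr and Cnn1) summed to 13.1 to 21.6 CPM in 3 of the libraries and to 105 CPM in room temperature replicate 2, where Acta2 alone had 63.0 CPM. In alveolar-only cells the same sum ran from 13.2 to 1722 CPM.

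The values that chose the cells are given as a description. Krt18, a luminal keratin, was at 4288 and 4267 CPM in cold and 3672 and 3113 CPM at room temperature. Wfdc18, a small secreted protein of the whey acidic protein family, was at 2196, 2146, 1946 and 3030.2 CPM, against 9285 ± 2169.5 CPM in alveolar-only and 22.9 ± 3.19 CPM in hormone-only cells. Csn3, the kappa-casein of milk, was at 932, 851, 622 and 737 CPM. Elf5 was at 118, 128, 103 and 190 CPM, and Kit at 179, 183, 133 and 235 CPM. On each of these alveolar genes the cells lay between the single-set classes, and Elf5, Kit and Wfdc18 were highest in room temperature replicate 2. Prlr was at 4465, 3683, 2129.7 and 2495 CPM, higher in both cold libraries, against 4222 ± 1315 CPM in hormone-only and 35.7 ± 6.30 CPM in alveolar-only cells. Cited1, a transcriptional cofactor of hormone-sensing cells, was at 1187, 1036, 1441 and 1080.2 CPM. Esr1 and Pgr were lower in level, at 77.6 ± 16.3 and 81.9 ± 14.4 CPM. At the alveolar threshold 14 cells lay just inside (5 to 6 per 10000) and 15 just outside (4 to 5). At the hormone threshold 34 lay just inside (2 to 3) and 28 just outside (1 to 2).

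Most of the cells carried several genes of each set: 517 (85.3%) had at least 2 genes of both sets, and 442 had at least 4 alveolar and at least 3 hormone genes. A minority rested on few hormone UMIs. In 99 cells the hormone set was under 10 per 10000, with a median of 2 such UMIs and 4714 UMIs in all, and in 50 cells it was a single UMI. These 99 had a median of 123 alveolar UMIs per 10000, near the 112 of alveolar-only cells, while the other 507 had 26.4 and a median depth of 39837 UMIs. Cells of other types show how often such low counts reach the thresholds. Free RNA and the cells' own transcripts were not told apart in them. Of 3130 T cells, 9.20% reached the hormone threshold, 0.831% the alveolar threshold and 0.0958% both. Their median depth was 6088 UMIs, against 31490 in cells with both sets. Of 1605 B cells (median 3151 UMIs) 13.02% reached the hormone threshold, 1.37% the alveolar threshold and 0.312% both. Among 3092 fibroblasts (median 9410 UMIs) the shares were higher, at 25.4%, 10.3% and 3.36%.

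Genes outside the rule showed the same mixed content. Among 20 further alveolar genes, Lcn2, an iron-binding antimicrobial protein, was at 981, 924, 841 and 817 CPM, against 2484 ± 752 CPM in alveolar-only and 15.8 ± 4.69 CPM in hormone-only cells. Mfge8, a milk fat globule protein, was at 566, 614, 461 and 1124 CPM, highest in room temperature replicate 2. Among 20 further hormone-sensing genes, Foxa1, a pioneer factor for oestrogen receptor binding, was at 256, 268, 267 and 236 CPM, with no separation of the groups. It stood at 347 ± 20.3 CPM in hormone-only and 8.00 ± 1.69 CPM in alveolar-only cells. Wnt4 was at 700, 527, 260 and 337 CPM and Areg at 696, 922, 433 and 686 CPM, in both cases with no overlap of the groups.

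Detection was also compared at equal depth, gene by gene. Such shares describe a class and do not show that a given cell held genes of both kinds. Each luminal cell was thinned to 5000 UMIs, which left out 63 of the 606 and kept 543, 97 alveolar-only and 1277 hormone-only cells. The shares pool the libraries, which gave 232, 102, 118 and 91 cells with both sets but 20, 15, 22 and 40 alveolar-only cells. Ltf, the antimicrobial protein lactoferrin, then had a UMI in 53.8% of cells with both sets, 53.6% of alveolar-only and 2.35% of hormone-only cells. Within each library, unthinned, Ltf was lower with both sets, at 1192, 547, 104 and 190 CPM. Alveolar-only cells had 4706, 1395, 387 and 820 CPM, so the like pooled shares do not show like levels. Lcn2 had a UMI in 89.1%, 98.97% and 3.99%. Some other alveolar genes stood further below alveolar-only cells by share. Ehf had one in 44.2%, 81.4% and 3.99%, and Muc15 in 44.8%, 81.4% and 0.470%. Foxa1 had one in 66.7%, 3.09% and 77.2%, and Wnt4 in 75.9%, 8.25% and 85.5%. Ramp1, from the same hormone-sensing list, went the other way, with 36.6%, 52.6% and 22.1%. Milk genes of the secretory phase were rare, with Csn2 in 1.29% and Wap in 0.184% of cells with both sets, and so was the basal Krt14, at 0.921%. Median genes per thinned cell were alike between the classes, at 1982 to 2130 with both sets, 1884 to 2017 with the alveolar set only and 1950 to 2121 with the hormone set only.

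Cells with both sets were deeper than either single-set class. Their median UMIs were 34501 and 25052 in cold and 33678 and 31216 at room temperature. Alveolar-only cells had 4263, 4510, 8616 and 8173, and hormone-only cells 16791, 16941, 20809 and 16895. The few luminal cells with neither set (14, 5, 22 and 28) had 14407, 34709, 15279 and 10257, in cold replicate 2 more than cells with both sets. The median with both sets was thus 5.34 ± 2.00 times that of alveolar-only and 1.75 ± 0.254 times that of hormone-only cells (mean and SD of the 4 ratios). It also lay above the sum of the 2 single-set medians in each library, by factors of 1.64, 1.17, 1.14 and 1.25. A cell with more UMIs has more chances to show a UMI of each set, which the thresholds per 10000 UMIs limit only in part, so the comparison is a description and was not tested. The share of luminal cells with both sets was 30.6% under 5000 UMIs, 13.04% from 5000 to 10000, 13.6% from 10000 to 20000, 28.5% from 20000 to 40000 and 55.02% from 40000 up. Under 5000 UMIs it was 37.1% and 33.8% in the cold libraries and 13.8% and 17.4% at room temperature, the latter from 4 cells each.

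**Figure D2:**
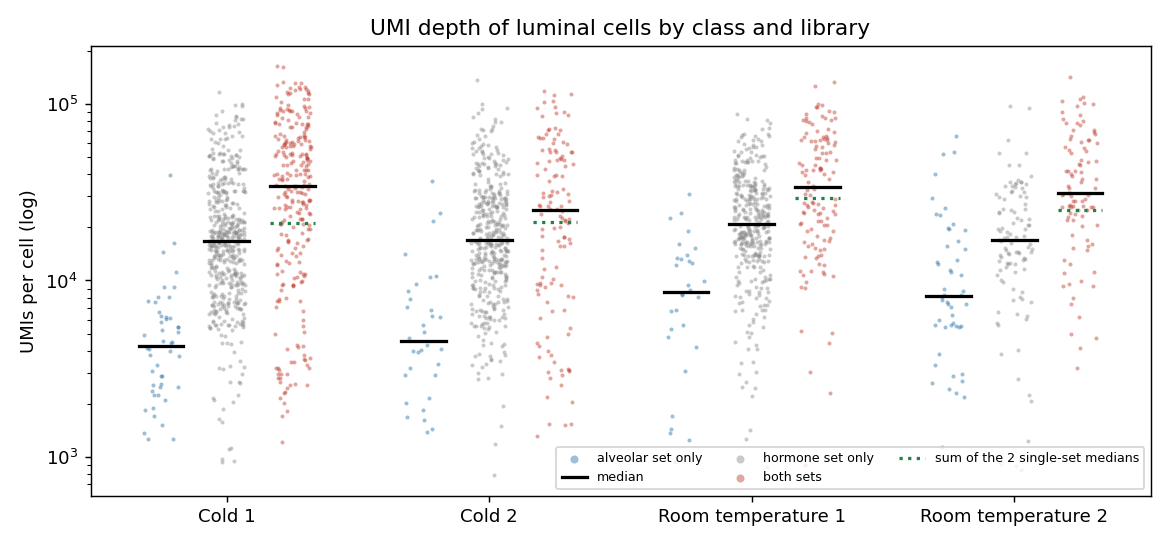
UMIs per cell (log axis) by library, 1 point per luminal cell, for alveolar-only, hormone-only and both-set cells. Black bars are medians, and dotted bars the sum of the 2 single-set medians, which the both-set medians of 34501, 25052, 33678 and 31216 exceed in all 4 libraries.

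On genes that differed strongly between the single-set classes, cells with both sets lay between those classes. The genes were chosen by that difference, which favours a level in between. Outside the rule, 165 genes were at least 4-fold higher in alveolar-only than in hormone-only cells in every library, and 122 were 4-fold higher the other way. With 0% as the level of the low class and 100% as that of the high class, cells with both sets stood at a median of 28.6% on the alveolar-side genes (quartiles 24.1% and 31.9%) and 69.8% on the hormone-side genes (64.8% and 74.7%). Over the 4 libraries together they lay between the classes on 164 of the 165 and on 122 of the 122 genes, and within a library on 160 to 164 and on 112 to 120. The alveolar-side median was 18.6%, 27.4%, 30.2% and 38.8% in the 4 libraries, lower in both cold libraries, and the hormone-side median was 77.2%, 77.7%, 75.2% and 53.5%, lowest in room temperature replicate 2. Of the UMIs in 1 median alveolar-only plus 1 median hormone-only cell, the alveolar-only cell would give 20.2%, 21.0%, 29.3% and 32.6% and the hormone-only cell 79.8%, 79.0%, 70.7% and 67.4%. The widest gap between such a share and the measured position was on the hormone side of room temperature replicate 2, 67.4% against 53.5%.

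Over all libraries, the median UMIs of each side in cells with both sets were above those of the single-set class. The median was 466 UMIs of alveolar-side genes, against 317 in alveolar-only cells, and 1070 of hormone-side genes, against 873 in hormone-only cells. In room temperature replicate 1 the hormone-side median was lower, 797 against 864, and the lower quartile over all libraries was 364 against 552. These are medians of a class and do not show that a given cell held both amounts. Per cell the 2 positions summed to a median of 100.0% (quartiles 88.8% and 110%). The sum was alike in alveolar-only (98.1%) and hormone-only cells (99.4%), where the scale largely fixed it, so it does not mark mixed content. In 243 of the 606 (40.1%) both positions were over 20%, against 1 of 160 alveolar-only and 8 of 1355 hormone-only cells. The single-set classes defined both the genes and the scale of positions, so their low shares were largely fixed in advance.

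**Figure D3:**
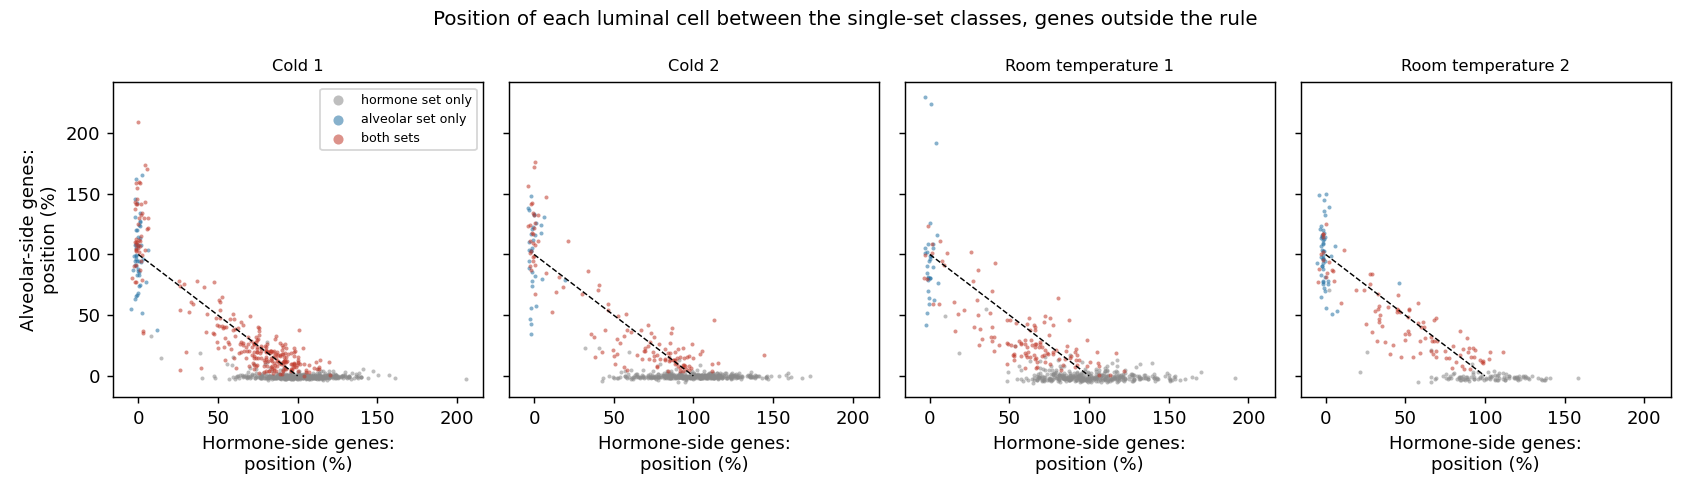
Each point is a luminal cell, placed by its position on the 122 hormone-side genes (x) and on the 165 alveolar-side genes (y), where 0% and 100% are the means of the single-set classes in that library. The dashed line joins the classes. Cells with both sets lie along it, with medians of 67.4% and 24.7%, and a smaller group lies among the alveolar-only cells.

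No gene set these cells apart by a large factor. Of 2344 genes with at least 50 CPM in the cells of every library, 16 were above both single-set classes in all 4, and none by 2-fold. The leading one was Jund, an AP-1 transcription factor, at 1499.7, 1337, 1065 and 989 CPM, with a smallest ratio over the higher class of 1.06. The next were Pigx (1.06), Mrpl4 (1.05), Abhd17c (1.04), Cmc1 (1.04), Naca (1.03), Grb7 (1.03) and Ssr4 (1.03). Below both classes in all 4 libraries were 18 of 1515 genes, none by 2-fold, led by Stt3b, a catalytic subunit of N-glycosylation, at 0.884 times the lower class or less.

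Doublet scores from simulated pairs of cells marked few of them, but could hardly mark a pair of an alveolar-only with a hormone-only cell. The simulated pairs were drawn at random from all cells that passed the filter, where such pairs are rare. At an assumed rate of 0.8% of barcodes per 1000 cells, which removed 157, 94, 277 and 105 cells, the removed set held 3, 1, 0 and 2 cells with both sets. Random pairing at that rate would give 0.446, 0.267, 0.198 and 0.108 pairs of an alveolar-only with a hormone-only cell, against the 265, 124, 122 and 95 cells seen. The median score with both sets, 0.573, 0.607, 0.577 and 0.536, was nonetheless above the medians of alveolar-only (0.125 to 0.523) and hormone-only cells (0.208 to 0.310). Luminal cells with neither set had 0.708, 0.786, 0.595 and 0.381, above cells with both sets in all but room temperature replicate 2. Fibroblast markers were met in 36 of the 606 (5.94%, at least 10 UMIs), against 41 of 1355 hormone-only cells (3.03%), and T cell markers in 11 (1.82%, at least 2 UMIs), against 22 (1.62%). Alveolar-only cells had 3 (1.88%) with fibroblast and 1 (0.625%) with T cell markers. These cuts are raw UMIs, which deeper cells reach more readily, and depth was not made equal here. By these counts a barcode that held 2 attached luminal cells and a cell with both programmes cannot be told apart.

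The share of these cells among luminal cells did not separate by temperature. In cold it was 32.6% and 21.7%, at room temperature 23.0% and 34.5%. The exact 95% binomial intervals were 29.3 to 35.9%, 18.4 to 25.3%, 19.5 to 26.8% and 28.9 to 40.5%, and they cover counting error only. The means were 27.1% ± 7.66 and 28.8% ± 8.15 (SD, n = 2 each; exact two-sided permutation test, p = 0.667, where this design cannot go below 0.333). After thinning to 5000 UMIs the shares were 31.9%, 20.9%, 24.2% and 38.5%. Replicates of the same group differed by more than the groups did. The sign of the difference turned from -1.65 to 3.77 percentage points without cold replicate 2, to 4.12 without room temperature replicate 2 and to 1.42 when Wfdc18 was left out of the rule. As a share of all cells that passed the filter they were 6.53% and 4.07% in cold and 2.23% and 3.02% at room temperature, a share that also moves with how much of each tissue's duct entered the suspension, which was not measured.

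Cold was then compared with room temperature within cells with both sets, on UMIs summed per library (edgeR's quasi-likelihood test, Benjamini-Hochberg adjustment over 11540 genes). In cold 20 genes rose (0.173%) and 12 fell (0.104%), together 0.277% of the genes tested, and 1923 (16.7%) had an unadjusted p under 0.05. Among those that rose were the secreted factors Nrg4 and Angptl4, the antimicrobial peptide Defb1, the tryptophan-degrading enzyme Ido1 and the lipid and nitrogen enzymes Dgat2 and Glul. Among those that fell were Fabp5, Nr4a2, Tnf, Icam1, Gadd45b and Ier5. The median over all genes tested was -0.02 on the log2 scale.

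The position on the alveolar-side genes was lower in both cold libraries, as given above, but replicates of a group differed by more than the groups' nearest values, and on the hormone side only room temperature replicate 2 was apart. These positions were not tested between the groups. Of the 20 that rose, 17 had a higher level in hormone-only than in alveolar-only cells, with Angptl4, Clec2d and Camk2n1 as the exceptions. All 12 that fell were higher in alveolar-only cells, against 49.3% of all genes tested. The part of the positions in the calls was not tested. The fit was repeated on the 243 cells with both positions over 20%: it called 31 genes, and 12 of the 32 were among them, Defb1, Ido1, Nrg4, Glul, Vps13d, Ppfibp2, Clec2d and Fabp5 included. The changes of Gadd45b (from -1.10 to -0.70) and Nr4a2 (from -2.01 to -1.24 on the log2 scale) were then smaller and not called. Angptl4 (from 2.18 to 2.56, adjusted p = 0.057 by edgeR) and Dgat2 (from 1.55 to 1.43, adjusted p = 0.085) were not called there either.

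Nrg4, an epidermal growth factor family ligand known as a secreted signal of brown fat, was at 260 and 214 CPM in cold and 48.7 and 34.7 CPM at room temperature. Both cold libraries were far above both others (237 ± 32.5 against 41.7 ± 9.90 CPM, SD, n = 2 each; log2 fold change 2.53, SE 0.23, adjusted p = 0.031 by edgeR). In hormone-only cells it was at 372, 233, 46.4 and 76.7 CPM, the same order of groups, and in alveolar-only cells at 7.42 CPM or below. The gene, ENSMUSG00000032311, lies at chr9:55220222-55326844 on the minus strand (GRCm38). Angptl4, a secreted inhibitor of lipoprotein lipase at chr17:33773750-33781830, was at 107 and 136 CPM in cold and 32.7 and 20.7 CPM at room temperature (a log2 change of 2.18 with SE 0.25, adjusted p = 0.042). It also stood higher in the cold libraries of both single-set classes, at 119 and 139 against 45.5 and 18.7 CPM in hormone-only and 238 and 108 against 13.2 and 0 CPM in alveolar-only cells.

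Defb1, a beta-defensin at chr8:21776599-21795185, had the largest rise among the called genes named here. It was at 460 and 605 CPM in cold and 18.4 and 53.8 CPM at room temperature (a log2 change of 3.96 with SE 0.42, adjusted p = 0.041). The groups did not overlap, and hormone-only cells had 452 and 711 against 38.2 and 129 CPM. Ido1, at chr8:24584136-24597009, was at 509 and 545 CPM in cold and 81.8 and 105 CPM at room temperature (a log2 change of 2.54 with SE 0.15, adjusted p = 0.012). Hormone-only cells had 602 and 838 against 97.8 and 268 CPM of Ido1. Both genes were at 12.99 CPM or below in alveolar-only cells. Ltf was at 1192 and 547 CPM in cold and 104 and 190 CPM at room temperature, but the cold libraries differed and the change was not called (log2 fold change 2.63, SE 0.43, adjusted p = 0.085). Wfdc2, a further small secreted protein of duct epithelium, stood at 3058 and 2483 against 1346 and 644 CPM, with adjusted p = 0.161. Of 11 tested genes of antimicrobial defence, Wfdc18 of the rule included, 1 rose and none fell, beside 0.173% and 0.104% of all genes.

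Dgat2, which makes the last step of triglyceride synthesis, was at 140 and 121 CPM in cold and 45.1 and 46.4 CPM at room temperature (a log2 change of 1.55 with SE 0.14, adjusted p = 0.031). Glul, glutamine synthetase, was at 1039 and 1093 against 379 and 440 CPM (log2 fold change 1.42, SE 0.14, adjusted p = 0.037). In hormone-only cells both genes were also higher in the cold libraries, Dgat2 at 202 and 136 against 66.7 and 55.6 CPM and Glul at 1231 and 1337 against 485 and 799 CPM. Other genes that rose, Dgki (1.60), Vps13d (1.48), Ppfibp2 (1.42), Limch1 (1.37) and Rwdd3 (1.35 on the log2 scale), had adjusted p-values of at most 0.0468.

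Fabp5, a fatty acid binding protein at chr3:10012548-10016607, had the largest fall among the 12 genes called lower. It was at 3.31 and 7.79 CPM in cold and 40.6 and 51.0 CPM at room temperature, from 38, 32, 205 and 200 UMIs (a log2 change of -3.18 with SE 0.33, adjusted p = 0.041). Hormone-only cells held little of it, 2.18 and 2.05 against 4.36 and 4.21 CPM, while alveolar-only cells held more and showed no such fall, at 197 and 191 against 136 and 137 CPM. Tnf, the inflammatory cytokine, was at 3.05 and 4.62 against 18.6 and 19.1 CPM (log2 fold change -2.33, SE 0.26, adjusted p = 0.041). Alveolar-only cells had 3.71 and 4.33 against 52.9 and 28.4 CPM of Tnf and hormone-only cells 2.55 and 1.18 against 5.03 and 2.338 CPM, where the groups overlapped. Icam1, a leukocyte adhesion molecule induced by NF-kB, was at 10.4 and 13.6 against 34.4 and 35.0 CPM (log2 fold change -1.53, SE 0.18, adjusted p = 0.041). Icam1 stood at 37.1 and 25.98 against 46.3 and 61.2 CPM in alveolar-only and at 11.4 and 11.7 against 26.1 and 17.8 CPM in hormone-only cells. Other cells of the same libraries also carried these transcripts, with Fabp5 at 935 CPM in endothelial cells and Tnf at 75.3 and Icam1 at 132 CPM in macrophages. The 5 macrophage markers summed to 30.1 and 79.6 CPM in cold and 64.3 and 40.1 CPM at room temperature in cells with both sets, so the groups overlapped there. The 4 endothelial markers summed to 6.62 and 5.35 CPM in cold and 7.33 and 8.68 CPM at room temperature, from 76, 22, 37 and 34 UMIs. These sums were lower in cold without overlap, an order that 27.2% of all genes also had. The part of other cells in these values was not tested.

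**Figure D4:**
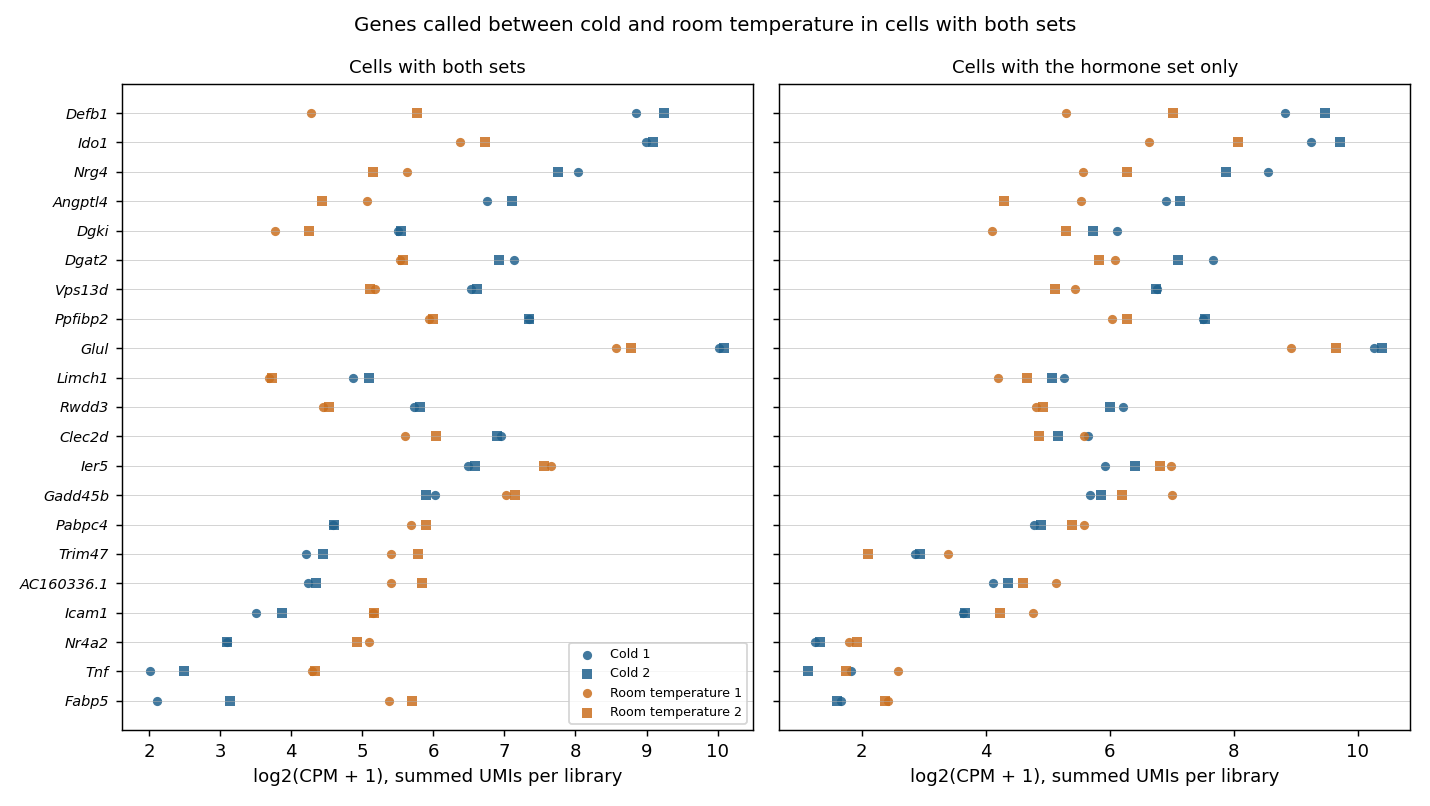
Levels as log2(CPM + 1) of 21 called genes in each library, in cells with both sets (left) and with the hormone set only (right). Cold libraries are blue and room-temperature libraries orange. On the left the groups do not overlap, with Defb1 at 460 and 605 against 18.4 and 53.8 CPM and Fabp5 at 3.31 and 7.79 against 40.6 and 51.0 CPM.

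Nr4a2, an orphan nuclear receptor induced within minutes by cyclic AMP, calcium or stress signals, was at 7.58 and 7.54 CPM in cold and 33.3 and 29.3 CPM at room temperature (a log2 change of -2.01 with SE 0.19, adjusted p = 0.035). Alveolar-only cells had 11.1 and 39.0 against 99.3 and 35.8 CPM, where the groups overlapped, and hormone-only cells 1.36 and 1.51 against 2.46 and 2.81 CPM. Its relatives stood in the same order without passing the test. Nr4a1 was at 40.0 and 82.0 against 190 and 135 CPM (log2 fold change -1.44, SE 0.34, adjusted p = 0.144), and Nr4a3 at 2.87 and 2.43 against 9.70 and 7.91 CPM (log2 fold change -1.67, SE 0.34, adjusted p = 0.114). Since the 3 genes moved in the same order, their promoters are printed here from RefSeq (GRCm38.p6), 250 bases before to 50 after the start, 5′ to 3′ on the gene's strand. Capitals mark TGACG or its reverse complement CGTCA, the core of the cyclic AMP response element.
Nr4a1, chr15:101266596-101266895, plus strand: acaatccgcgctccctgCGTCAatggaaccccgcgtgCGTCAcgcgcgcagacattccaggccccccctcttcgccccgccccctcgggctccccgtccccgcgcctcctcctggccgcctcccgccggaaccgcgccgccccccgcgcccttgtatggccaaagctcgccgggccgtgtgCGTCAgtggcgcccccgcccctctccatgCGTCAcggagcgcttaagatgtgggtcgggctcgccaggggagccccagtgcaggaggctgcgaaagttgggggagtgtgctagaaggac
Nr4a2, chr2:57123954-57124253, minus strand: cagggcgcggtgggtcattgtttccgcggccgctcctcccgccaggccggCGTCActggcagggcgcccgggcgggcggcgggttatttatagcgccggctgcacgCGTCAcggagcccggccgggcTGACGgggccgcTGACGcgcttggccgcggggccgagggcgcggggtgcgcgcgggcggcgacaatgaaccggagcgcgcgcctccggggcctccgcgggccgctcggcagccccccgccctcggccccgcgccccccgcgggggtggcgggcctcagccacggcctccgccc
Nr4a3, chr4:48045055-48045354, plus strand: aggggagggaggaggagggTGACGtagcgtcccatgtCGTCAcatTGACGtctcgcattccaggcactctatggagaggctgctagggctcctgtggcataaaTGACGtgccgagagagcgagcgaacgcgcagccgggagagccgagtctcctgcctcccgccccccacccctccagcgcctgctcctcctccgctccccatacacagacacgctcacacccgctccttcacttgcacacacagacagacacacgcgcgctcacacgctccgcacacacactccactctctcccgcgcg

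Each of the 3 windows holds 4 such matches, counted on both strands. Of 32851 promoters of the same length, 20.8% held at least 1 and 0.231% held 4 or more. Those promoters were matched by length only, and the 3 genes were picked for their values, so the shares test nothing. A match is a stretch of letters and not a shown site of binding.

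Lists of genes were read by their counts, beside 8.41% of all genes at an unadjusted p under 0.05 and higher in cold and 8.25% lower. Called genes made up 0.173% of all genes for a rise and 0.104% for a fall. Of 13 tested cytokine and NF-kB genes 2 were called lower (Tnf and Icam1), 9 had an unadjusted p under 0.05, all lower, and the median was -1.54 on the log2 scale (-0.75 with room temperature replicate 1 left out). The chemokine Cxcl1 was at 6.71 and 19.95 against 88.5 and 44.1 CPM, and the NF-kB inhibitor Nfkbia at 141 and 196 against 288 and 315 CPM; neither was called (adjusted p = 0.130 and 0.116). Of 20 immediate early genes 1 was called (Nr4a2), 6 were lower and 2 higher at an unadjusted p under 0.05, and the median was -0.24. Fos, the member with the highest level, overlapped between the groups at 2479.7 and 2559.7 against 2850.1 and 1940.6 CPM, so the lower values were not shared by the whole list. With 1 library left out that median was -0.15 (cold replicate 1), -0.37 (cold replicate 2), 0.12 (room temperature replicate 1) or -0.46 (room temperature replicate 2).

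Of 18 cell cycle genes none was called, 12 had both cold libraries under both room-temperature ones, as did 27.2% of all genes (21.1% the other way), and the median was -1.80. Top2a, a DNA topoisomerase of dividing cells, was at 3.66 and 37.96 CPM in cold and 114 and 50.3 CPM at room temperature. Cold replicate 1 was far below the rest, and the median of the list ran from -3.79 without cold replicate 2 to -0.82 without cold replicate 1, and it was -1.02 when room temperature replicate 1 was dropped. Among genes of fatty acid oxidation, Ucp2, an uncoupling-type carrier of the mitochondrion, was at 352 and 405 against 233 and 210 CPM, and Pdk4, which closes pyruvate dehydrogenase, at 8.89 and 10.5 against 2.38 and 2.55 CPM; neither was called (adjusted p = 0.107 and 0.077). Of 16 lipid synthesis genes none was called, and 5, Fasn among them at 23.9 and 24.8 against 35.4 and 50.01 CPM, were lower at an unadjusted p under 0.05.

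Of 16 glucocorticoid-responsive genes 2 rose (Glul and Angptl4), with a median of 0.29 (0.16 with cold replicate 1 left out). Of 17 clock genes none was called, with a median of 0.42 (0.18 with cold replicate 1 left out), and 7 were higher at an unadjusted p under 0.05, with Dbp, an output factor of the clock, at 93.6 and 53.0 against 25.1 and 24.5 CPM (adjusted p = 0.102). Of 9 secreted metabolic factors 2 rose (Nrg4 and Angptl4). Enho, which encodes adropin, was at 364 and 264 against 166 and 120 CPM (adjusted p = 0.127), Lrg1 at 141 and 77.6 against 45.3 and 50.01 CPM (adjusted p = 0.132) and Lcn2 at 981 and 924 against 841 and 817 CPM (adjusted p = 0.481). The cold-inducible RNA-binding protein Cirbp was at 243 and 225 against 102 and 155 CPM (adjusted p = 0.108), and Rbm3 at 614 and 686 against 593 and 438 CPM (adjusted p = 0.438). None of the 16 alveolar and 17 hormone-sensing genes outside the rule was called, and their medians were -0.31 and 0.29. Without room temperature replicate 2 these were 0.13 and 0.67. The alveolar median was -0.59 with room temperature replicate 1 dropped, and the hormone-sensing one 0.17 with cold replicate 1 dropped.

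**Figure D5:**
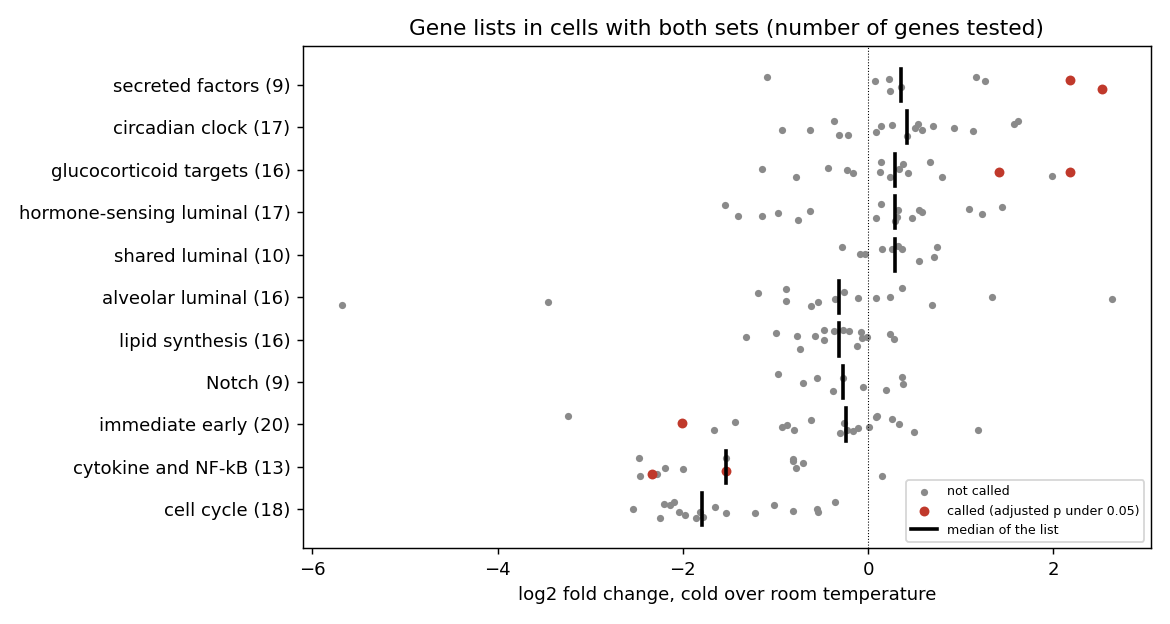
Log2 fold change of cold over room temperature for each tested gene of 11 lists in cells with both sets, with called genes in red and the median of each list as a bar. The medians run from -1.80 for cell cycle and -1.54 for cytokine and NF-kB genes to 0.42 for clock genes (-0.75 for cytokine genes with room temperature replicate 1 left out, 0.18 for clock genes with cold replicate 1 left out), and 6 of the 32 called genes lie in these lists, with Angptl4 drawn in 2 of them.

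The calls sat close to the threshold, with adjusted p from 0.0118 to 0.0468, and their number moved with the settings. Leaving out cold replicate 1 gave 6 calls and leaving out cold replicate 2 gave 307. For the room-temperature libraries the numbers were 786 (replicate 1 left out) and 479 (replicate 2 left out), and all 32 kept their direction in each. With Wfdc18 left out of the rule, 447 cells remained and no gene was called (smallest adjusted p = 0.057, 1537 genes at an unadjusted p under 0.05).

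In the single-set cells the same test called fewer genes. Alveolar-only cells had smaller sums than cells with both sets, at 230902 to 669901 UMIs per library. Of the 32 genes called in cells with both sets, all 32 had the same direction in hormone-only cells. In alveolar-only cells 17 were tested and 16 had the same direction. Of 12327 genes in hormone-only cells 1 was called (0.00811%), the haemoglobin gene Hbb-bs, and 807 (6.55%) had an unadjusted p under 0.05. Of 4422 in alveolar-only cells none was called (smallest adjusted p = 0.404, 164 or 3.71% unadjusted), with 3 by DESeq2. The difference in the cold effect was then tested with the library as a block over 12715 genes. Against alveolar-only cells it was called for 3 genes (0.0236%, 905 or 7.12% unadjusted) and against hormone-only cells for 2 (0.0157%, 278 or 2.19% unadjusted). Fabp5 was one of the 3, with a cold effect -3.63 lower on the log2 scale (SE 0.35, adjusted p = 4.9e-04) than in alveolar-only cells. The others, Il17b and Acta2 against alveolar-only and Hbb-bs and Fam90a1a against hormone-only cells, are named because they are so few, after their values were seen. With Wfdc18 out of the rule the differences of Il17b and Acta2 turned from -5.64 and -4.49 to 6.06 and 2.52, and neither was called. For the other 31 genes called in cells with both sets no difference was called against either class. The difference for Nrg4 against hormone-only cells was 0.14 (SE 0.30), for Ido1 0.38 (SE 0.31) and for Glul 0.34 (SE 0.24).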

How the data were processed

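Per the labels, libraries were made with the 10x 3′ v3 chemistry, and the deposited matrices hold UMI counts per gene and barcode, which the authors made with Cell Ranger 3.0.2 on mm10, per the submitters' processing notes. Barcodes needed 500 or more genes and a mitochondrial share of UMIs below 15%, and no doublets were removed. Counts were summed per class and library, which gave 3918849 to 11479596 UMIs per library in cells with both sets. They were tested with edgeR 4.0.16 (quasi-likelihood, TMM, filterByExpr, two-sided, adjusted p under 0.05), with DESeq2 1.42.0 among the alternatives, and the test was checked on simulated data. Classes were compared by description, since the rule used those counts. Members and lists were chosen with earlier results of these data known. Genes were named by size of change among those called with a mean of at least 20 CPM (up to 12 each way), as up to 4 called members of a list, or by a fixed list of 10 names; Wfdc2, Camk2n1 and the uncalled list members were chosen after their values were seen. Coordinates are from the GRCm38 annotation, matched by gene ID (40 of 40). A called gene, and the list counts that include it, are not reported here.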

Additional observations from a re-analysis of the deposited data

Results flagged for a closer look

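For 5 genes the cold effect in cells with both sets differed from that in a single-set class (edgeR's quasi-likelihood test of the interaction, library as a block). For Fabp5 the difference from alveolar-only cells was -3.63 on the log2 scale (adjusted p = 4.9e-04). For Il17b, a cytokine, it was -5.64 (adjusted p = 0.030), with 0.174 and 0.243 CPM in cold against 0.396 and 11.5 CPM at room temperature in cells with both sets, and 111 and 65.0 against 3.31 and 92.6 CPM in alveolar-only cells. It rests on 2, 1, 2 and 45 UMIs in cells with both sets and on 30, 15, 1 and 62 in alveolar-only cells. For Acta2, a smooth muscle actin of basal cells, it was -4.49 (adjusted p = 0.040), with 4.62 and 5.60 against 7.33 and 63.0 CPM, and 1269 and 95.3 against 3.31 and 457 CPM. In both classes room temperature replicate 2 had far more Acta2 than replicate 1. With Wfdc18 left out of the rule the differences of Il17b and Acta2 turned to 6.06 and 2.52, and neither was called. Neither was called without cold replicate 1 (-4.82 and -1.51) or without room temperature replicate 2 (-5.68 and -8.39). For Hbb-bs, a red cell globin, the difference from hormone-only cells was -6.22 (adjusted p = 6.4e-04), with 1.13 and 1.22 against 2.38 and 1.53 CPM, and 112 and 129 against 3.02 and 2.338 CPM in hormone-only cells. For Fam90a1a it was 4.66 (adjusted p = 0.0099), with 11.9 and 32.6 against 0.198 and 0.510 CPM, and 15.6 and 33.1 against 8.27 and 13.1 CPM in hormone-only cells.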

How the results depend on the processing

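With 2 libraries a group the number of calls moved with most settings, and the cause was not tested. In cells with both sets the 32 calls became 11 with a replicate block, 222 by DESeq2, 1181 (518 higher, 663 lower) without the low-count filter, 0 without Wfdc18 in the rule, 7 with doublets removed, 80 in the shallower cells and 93 after thinning, and 6 to 786 when 1 library was left out. All 32 kept their direction in each setting where they were tested, 31 in the shallower cells and 26 after thinning. The labels do not say that the replicate numbers pair the libraries. The correlation of deviations between same-numbered libraries, -0.118 over 11540 genes, cannot settle this with 2 libraries a group. A crossed block, added after seeing the data, gave 687 calls. Alveolar-only cells had 3 calls by DESeq2 and 0 to 77 with 1 library left out. Hormone-only cells had 33 by DESeq2, 0 with a replicate block and 0 to 1 with 1 library left out. The difference from alveolar-only cells was called for 135 genes without the filter, 20 with doublets removed, 0 without Wfdc18 and 1 to 32 with 1 library left out; that from hormone-only cells for 26, 2, 1 and 5 to 14. Without Wfdc18 the differences of Il17b and Acta2 turned to 6.06 and 2.52. The share difference turned to 1.42 points without Wfdc18 and ran from -7.41 to 4.12 with 1 library left out (3.77 without cold replicate 2, 4.12 without room temperature replicate 2). The depth ratio over hormone-only cells was 2.12 with the stricter gate and 1.36 without Wfdc18. Genes under about 20 CPM rest on few UMIs in the smaller libraries.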
